A study of Homo sapiens with 4 samples.

Results

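The genes described here encode the extracellular matrix and the enzymes and receptors that build, cut and hold it. They were chosen by name, as a list of 43 gene symbols that covers collagens, laminins, matrix glycoproteins, hyaluronan synthases, proteoglycans, collagen-modifying and crosslinking enzymes, matrix proteases with their inhibitors, and 2 integrin chains. The list was chosen with earlier results of these data known. Its shares beside those of all genes are therefore a description and not a test. All 43 genes were found among the 25027 symbols or identifiers in the data, and 33 of them averaged at least 1 FPKM, the minimum for a comparison. FPKM is the number of sequenced fragments divided by transcript length and by the mapped reads of the library, so levels can be compared between genes.

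RPE1 is a line of human retinal pigment epithelium that was made immortal with telomerase, and its cells were transfected at low density with 10 nM siRNA. One siRNA was directed against the RNA of SAF-A, also called scaffold attachment factor A or HNRNPU, a nuclear protein that binds both RNA and chromatin, and the other was a negative control. Cells were collected 24 h or 48 h after transfection, which gave the groups control 24 h and 48 h and SAF-A 24 h and 48 h, each of 1 library of total RNA depleted of ribosomal RNA. All groups shared the cell line and the transfection reagent, 1 siRNA sequence was used against SAF-A, and no group had a replicate, so no p-value can be given and each statement describes these 4 libraries.

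Collagens are made in the endoplasmic reticulum as chains whose prolines and lysines are hydroxylated before they fold into a triple helix, and crosslinking enzymes join them after secretion. Basement membranes are sheets of type IV collagen and laminin on which epithelia rest, and that of the retinal pigment epithelium is the inner layer of Bruch's membrane. Integrins on the cell surface bind fibronectin, laminin and collagen, while metalloproteases cut the matrix and are held in check by tissue inhibitors.

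The library of SAF-A 48 h stood apart in depth. The deposited values imply between 28083822 and 30701282 mapped reads for the other 3, called the deep libraries below, and 1216740 for SAF-A 48 h. HNRNPU itself was at 91.2 FPKM in control 24 h, 10.4 in SAF-A 24 h, 84.6 in control 48 h and 9.24 in SAF-A 48 h, so each library labelled SAF-A was low in the targeted gene. Of 11 retinal pigment epithelium markers, 2 (MITF and OTX2) reached 1 FPKM in every library, and RPE65, the defining visual cycle enzyme, was listed at 0 in all. Of 9 mesenchymal markers 8 reached 1 FPKM, with a summed level of 1871 to 2571 FPKM in the deep libraries and 3888 in SAF-A 48 h. VIM alone gave 3312 FPKM of that last sum, against 1586 in control 48 h. ACTA2 (11.4 to 97.6 FPKM), TAGLN (181 to 365), CDH2 (51.1 to 81.5) and PDGFRB (1.07 to 4.62) were also higher in SAF-A 48 h than in control 48 h. Intervals were apart for each of these and for VIM. THY1 (23.5 to 14.2 FPKM), ZEB1 (7.68 to 5.30) and TWIST1 (9.43 to 7.31) were lower, with intervals apart for THY1 alone. The epithelial list had 4 of 7 at 1 FPKM or above, CDH1 was at 0 throughout, and its sum was 169 to 300.3 FPKM in the deep libraries and 52.2 in SAF-A 48 h. KRT8 and KRT18 carried most of that sum, and the deposited status of both was other than OK in the deep libraries, while CLDN1 (1.13 to 3.29 FPKM) and TJP1 (6.19 to 10.2) were higher in SAF-A 48 h than in control 48 h. No endothelial marker of 4 reached 1 FPKM, and 1 of 4 leukocyte markers (CD68) did. The part of these markers in the results below was not tested. Where a gene is given with 4 levels, they follow the order control 24 h, then SAF-A 24 h, then control 48 h, then SAF-A 48 h, and a difference at 24 h or 48 h is SAF-A minus control siRNA. Intervals are the deposited 95% bounds, which describe the estimate within a library and not the spread between cultures.

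**Figure D1:**
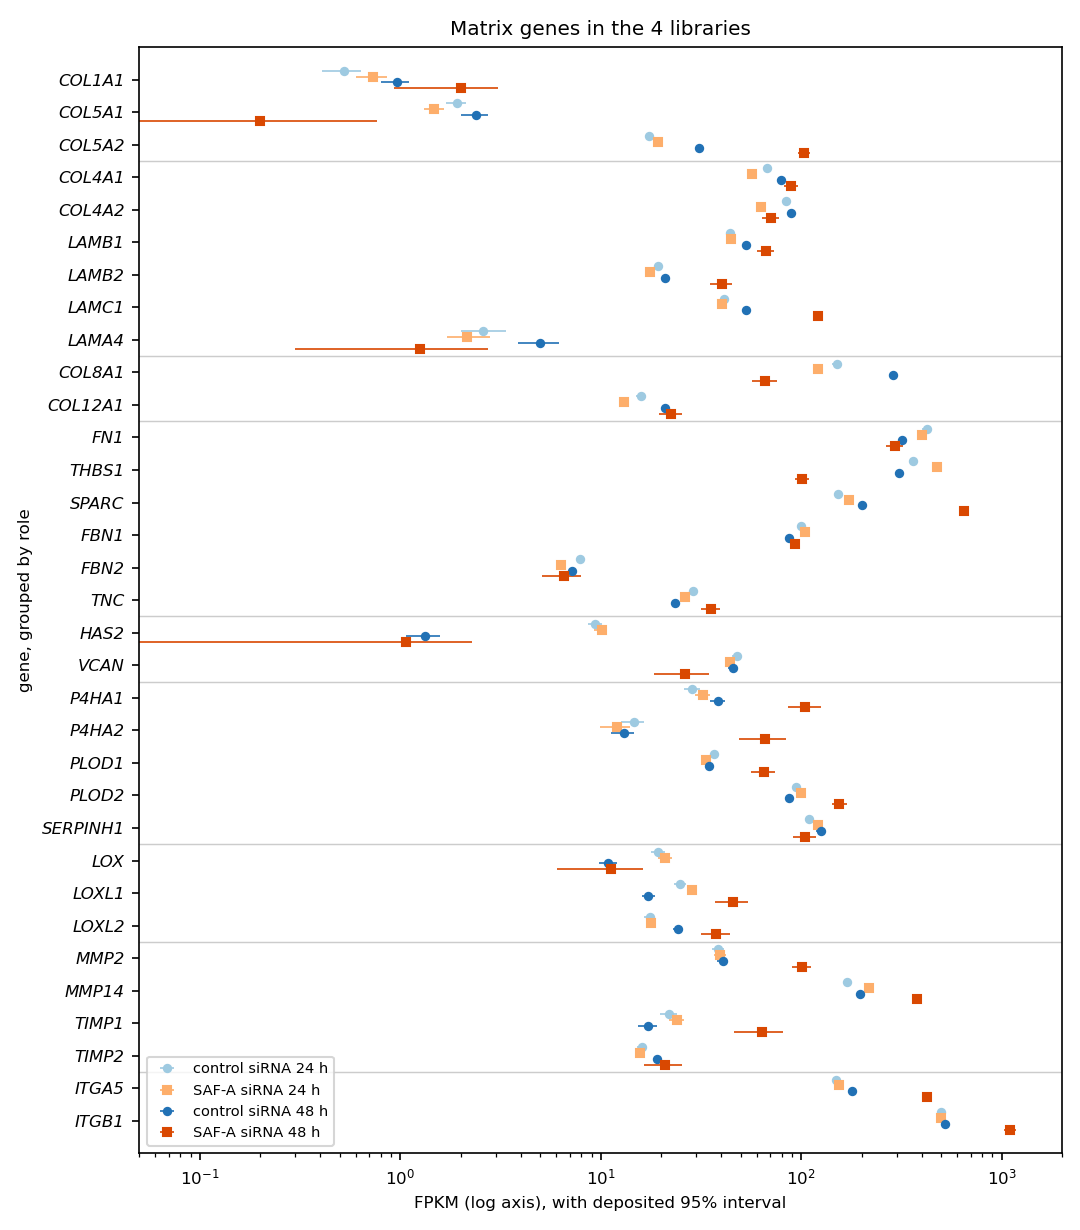
Level of each of the 33 compared matrix genes in the 4 libraries, in FPKM on a log axis, with genes grouped by role from collagens at the top to integrins at the bottom; horizontal lines are the deposited 95% intervals. The SAF-A 48 h squares lie to the right of the other 3 libraries for 18 genes with intervals apart, and to the left for 4.

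At 24 h no matrix gene differed 2-fold between SAF-A and control siRNA. Changes are differences in log2(FPKM + 1), which understate the change of genes at a few FPKM, and 2-fold is a difference of 1 on that scale. Among all 11053 genes compared 0.633% differed by that much, 0.389% higher and 0.244% lower. Of the 33 matrix genes 18 were higher and 15 lower by any amount, where 35.6% of all genes were higher, and the median change was 0.02 against -0.07 over all genes. The widest were THBS1 at 0.40 and COL4A2 at -0.41.

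At 48 h 10 matrix genes were at least 2-fold higher with SAF-A siRNA and 4 were at least 2-fold lower, or 42.4% of the 33. The background, meaning the same share over all genes compared, was 32.8%, with 14.3% higher and 18.5% lower. The higher genes were COL5A2, LAMC1, SPARC, P4HA1, P4HA2, LOXL1, MMP2, TIMP1, ITGA5 and ITGB1, which encode a fibrillar collagen chain, a laminin chain, a collagen-binding protein, 2 prolyl hydroxylase subunits, a crosslinking enzyme, a gelatinase, an inhibitor and the pair of chains that form the fibronectin receptor. The lower genes were COL5A1, LAMA4, COL8A1 and THBS1, of which COL5A1 and LAMA4 rested on 2 and 11 reads in SAF-A 48 h. By any amount, 23 matrix genes were higher, where 45.9% of all genes were, and the median change was 0.57 against -0.11 over all genes.

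The level of SAF-A 48 h was above all 3 other libraries, with intervals that did not overlap, in 18 of the 33 genes (54.5%), where the background was 20.0% of all genes and 26.3% of genes averaging 5 FPKM or more. It was below all 3 in 4 genes (12.1%), where the background was 20.3% and 21.0%. As the list was chosen with earlier results of these data known, these shares are not independent of them. The summed FPKM of the matrix genes was 2812, 2942 and 2961 in control 24 h, SAF-A 24 h and control 48 h and 4476 in SAF-A 48 h, which is 0.746%, 0.755%, 0.774% and 0.994% of the FPKM of all genes of at least 300 nt. In a bulk sample a change in RNA per cell and a change in the number of cells that carry it cannot be told apart.

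The scale bears on the 48 h counts. When FPKM was rescaled to a common total over genes of at least 300 nt (TPM), the median of all genes moved from -0.11 to -0.34, and the share of changed genes that were higher moved from 43.7% to 27.8%. Among the matrix genes 8 were then 2-fold higher and 5 lower, with a median of 0.35. Over all 11053 genes compared, 1185 were then higher and 3076 lower, or 38.6%. LAMC1 at 0.96 and ITGB1 at 0.84 were under the threshold on that scale, and VCAN at -1.01 passed it. Rescaling also turned 5 genes with small positive changes (COL4A1, COL12A1, FBN1, LOX and TIMP2, at most 0.16) negative.

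**Figure D2:**
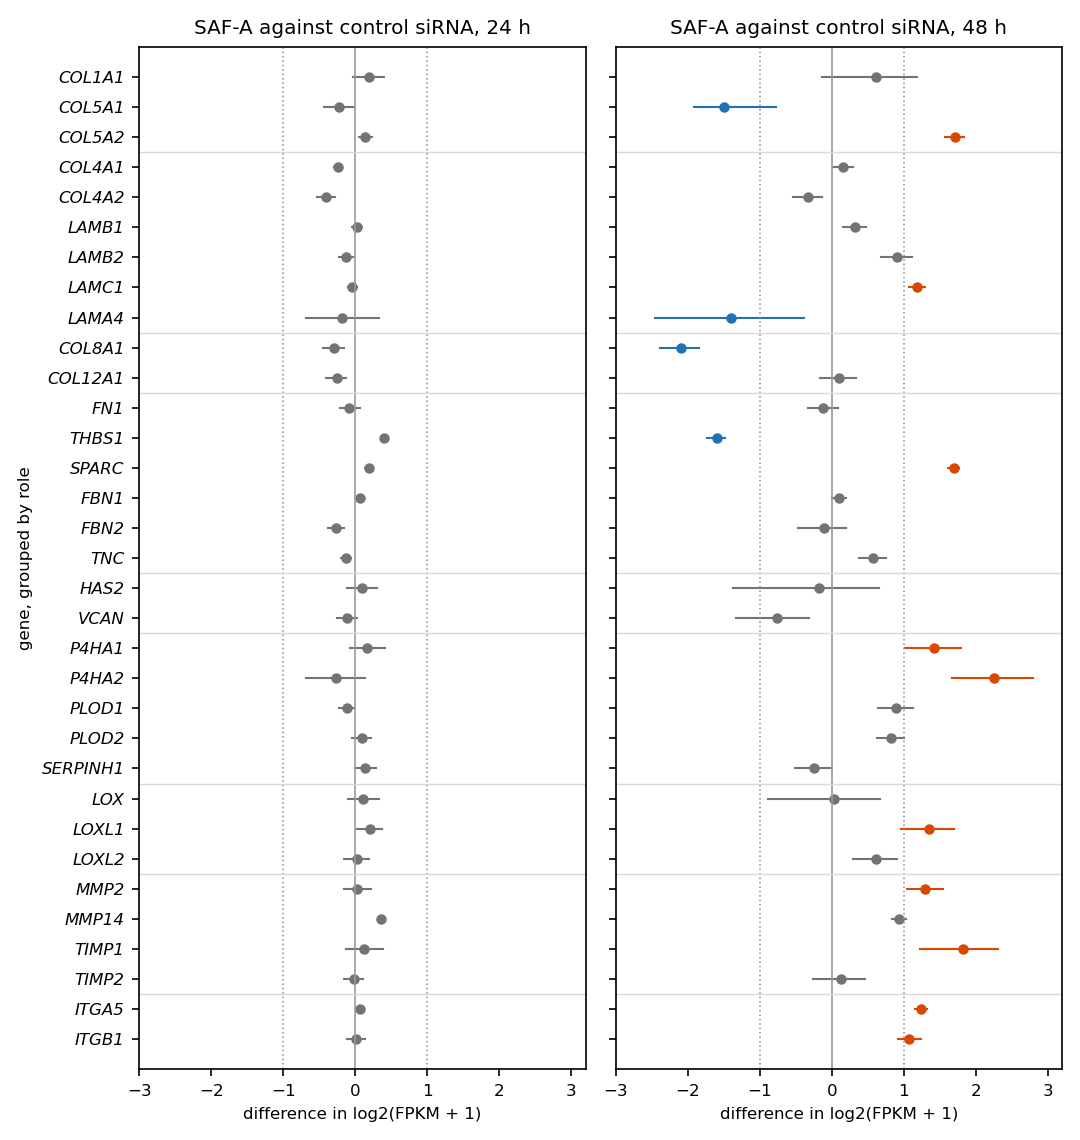
Difference in log2(FPKM + 1) between SAF-A and control siRNA for each of the 33 matrix genes, at 24 h on the left and 48 h on the right; lines give the range from the deposited interval bounds, dotted lines mark 2-fold, and colour marks genes past it. All 24 h points lie between -0.41 and 0.40, whereas at 48 h 10 lie past the upper line and 4 past the lower.

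Among the fibrillar collagens, the rope-forming chains of connective tissue, only COL5A2 was abundant in these cells. COL5A2 (chr2:189896641-190044605) was at 17.5 FPKM in control 24 h, 19.4 in SAF-A 24 h, 30.8 in control 48 h and 103 in SAF-A 48 h. SAF-A 48 h was the highest library and control 48 h the next, with no overlap of intervals. The difference between siRNAs was 0.14 at 24 h and 1.71 at 48 h.

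COL5A1 (chr9:137533651-137736688), whose chain pairs with that of COL5A2 in type V collagen, went the other way. It was at 1.91, 1.48, 2.39 and 0.20 FPKM, a difference of -1.50 at 48 h. The last value rested on 2 estimated reads, against 562 in control 48 h. In reads scaled by depth, COL5A1 in SAF-A 48 h was 8.36% of control 48 h, with an exact 95% counting interval of 1.01% to 30.3%. A noncoding gene on the opposite strand, LOC101448202, shares 94 exonic bases with it.

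COL1A1, the main chain of type I collagen, was near the minimum at 0.523, 0.734, 0.960 and 2.01 FPKM. Its mean of 1.06 was the lowest among the compared genes and fell under the minimum without SAF-A 48 h, where it rested on 14 reads. Its partner COL1A2 had at most 0.0342 FPKM, and COL3A1, the chain of type III collagen, at most 0.155. These RPE1 libraries thus held little RNA for the type I and type III collagens of fibroblasts.

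Both main chains of type IV collagen were present at similar levels. COL4A1 (chr13:110801310-110959496) was at 67.2, 56.7, 79.7 and 89.4 FPKM. COL4A2 (chr13:110959631-111165373) was at 83.8, 63.0, 88.7 and 70.5 FPKM. Both were lower with SAF-A siRNA at 24 h, by -0.24 and -0.41, with intervals apart. At 48 h COL4A2 was also lower, at -0.33, while COL4A1 was at 0.16 and, on the TPM scale, at -0.07.

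COL4A1 and COL4A2 lie head to head on chromosome 13 and are read in opposite directions from a short stretch between their start sites, which is shown because it lies before both starts. It spans chr13:110959497-110959630 of GRCh37 (hg19), 134 bases written on the plus strand, with a CCAAT box and a GC box (GGGCGG) in capitals, 1 match each, and a GC content of 79.1%:
COL4A1 and COL4A2 shared start region: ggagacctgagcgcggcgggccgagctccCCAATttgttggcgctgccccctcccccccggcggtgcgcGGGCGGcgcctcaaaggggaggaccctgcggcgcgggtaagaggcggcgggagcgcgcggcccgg
The ratio of COL4A1 to COL4A2 across this stretch was 0.802 in control 24 h, 0.901 in SAF-A 24 h, 0.899 in control 48 h and 1.27 in SAF-A 48 h. Its range from the deposited bounds in SAF-A 48 h, 1.07 to 1.51, lay above those of the other 3 libraries.

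Laminins are trimers of an alpha, a beta and a gamma chain. The gamma chain gene LAMC1 (chr1:182992595-183114727) was at 41.4, 40.2, 53.0 and 122 FPKM, a difference of -0.04 at 24 h and 1.19 at 48 h. The beta chain gene LAMB2 was at 19.4, 17.6, 21.0 and 40.2 FPKM, a difference of -0.13 and then 0.91. The other beta chain gene, LAMB1, was at 44.1, 44.7, 53.0 and 66.6 FPKM, with 0.02 and 0.32. All were highest in SAF-A 48 h, and LAMC1 by the most. The ratio of LAMB1 to LAMC1 was therefore 1.07, 1.11 and 1.00 in the deep libraries and 0.547 in SAF-A 48 h.

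The alpha chain gene LAMA4 (chr6:112429134-112575917) was low in all libraries. It was at 2.59, 2.15, 4.96 and 1.26 FPKM, a difference of -0.19 at 24 h and -1.40 at 48 h. SAF-A 48 h rested on 11 reads, and its scaled read number was 27.8% of control 48 h (13.8% to 50.0%). Its interval overlapped those of both 24 h libraries.

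Among the other collagens, COL8A1, a short-chain network collagen of Descemet's and Bruch's membranes, had the largest decrease of the compared matrix genes at 48 h on the log2(FPKM + 1) scale, whereas as a plain ratio COL5A1, with 2 reads, was lower. COL8A1 (chr3:99357440-99515577) was at 150.3, 122, 286 and 65.8 FPKM. Control 48 h was the highest library and SAF-A 48 h the lowest, with no overlap. The difference between siRNAs was -0.30 at 24 h and -2.10 at 48 h. Its value in SAF-A 48 h came from 231 reads.

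COL8A1 also had 2 RefSeq transcripts that differ by a 62-nt exon. The transcript with that exon held 25.4%, 23.9% and 34.0% of the gene's FPKM in the deep libraries and 100% in SAF-A 48 h. The last share rested on few reads, as about 8.88 would fall on that exon. COL12A1, a collagen on the surface of fibrils, was at 15.8, 13.0, 20.9 and 22.4 FPKM, a difference of -0.26 at 24 h and 0.10 at 48 h. Nearly all of it was in the long transcript, at least 99.4% in each library. The type VI chains COL6A1, COL6A2 and COL6A3 had at most 0.898 FPKM.

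Fibronectin, the protein of FN1 (chr2:216225179-216300791), links integrins to collagen. FN1 was at 422, 400.2, 319 and 294 FPKM. It was lower at 48 h than at 24 h with either siRNA, and at neither time did the intervals of the siRNAs separate (-0.08 and -0.12). Its transcripts can carry 2 extra domains of type III, each encoded by a single exon. Their sequences on the minus strand, from GRCh37, are shown because the shares below rest on them; capitals mark GAAGAA, a purine motif known from a splicing enhancer of the domain A exon:
FN1 extra domain A exon, chr2:216245534-216245803: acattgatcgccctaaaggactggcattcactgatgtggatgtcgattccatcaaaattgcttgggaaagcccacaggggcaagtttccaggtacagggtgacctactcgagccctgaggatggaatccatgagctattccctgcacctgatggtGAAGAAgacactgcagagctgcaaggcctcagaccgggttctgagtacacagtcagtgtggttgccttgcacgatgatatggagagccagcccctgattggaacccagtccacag
FN1 extra domain B exon, chr2:216257654-216257926: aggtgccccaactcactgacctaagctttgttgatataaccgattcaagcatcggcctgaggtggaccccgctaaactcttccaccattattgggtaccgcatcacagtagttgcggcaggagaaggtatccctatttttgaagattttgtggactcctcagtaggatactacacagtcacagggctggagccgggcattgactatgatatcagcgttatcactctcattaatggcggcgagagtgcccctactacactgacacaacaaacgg
The motif occurred 1 time in the first exon, of 270 bases, and 0 times in the second, of 273 bases. Among transcripts that span the site, the extra domain A exon was carried by 81.3% of FPKM in control 24 h, 86.1% in SAF-A 24 h, 88.1% in control 48 h and 100% in SAF-A 48 h. The ranges from the deposited bounds were 79.8% to 82.7% (control) and 84.9% to 87.3% (SAF-A siRNA) at 24 h, and 87.0% to 89.1% and 99.8% to 100% at 48 h, so they were apart at both times. The ranges of control 24 h and control 48 h were apart as well. A transcript without this exon also skips another of 267 bases, so the share is not a measure of the domain A exon alone. Another transcript without it was at 23.0 FPKM in control 24 h and 0.0076 in control 48 h. The extra domain B exon was carried by 13.3%, 14.0%, 17.8% and 16.9%. Domain A was thus the common form and domain B the rare one in every library, and the share of domain B did not separate the siRNAs at 48 h (16.5% to 19.3% in control, 14.1% to 19.7% with SAF-A siRNA).

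Thrombospondin 1, the protein of THBS1 (chr15:39873280-39889668), modulates adhesion and activates latent TGF-beta. THBS1 was at 362, 478, 309 and 101 FPKM. SAF-A 24 h was the highest library and SAF-A 48 h the lowest. The difference between siRNAs was 0.40 at 24 h and -1.60 at 48 h, where it rested on 687 reads.

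SPARC, a collagen-binding protein that governs how fibrils assemble, lay at the other end. SPARC (chr5:151040657-151066615) was at 152, 173, 201 and 652 FPKM, a difference of 0.19 at 24 h and 1.70 at 48 h. The fibrillins form the microfibrils of elastic tissue, and the siRNA differences of their genes were small, from -0.27 to 0.10. FBN1 was at 99.5, 104, 87.0 and 93.6 FPKM, and FBN2 at 7.88, 6.36, 7.17 and 6.56 FPKM. Tenascin C, an adhesion-modulating glycoprotein, is encoded by TNC, which was at 28.8, 26.2, 23.6 and 35.6 FPKM, a difference of -0.13 at 24 h and 0.57 at 48 h. POSTN, which encodes periostin, had at most 0.0480 FPKM.

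Hyaluronan, a sugar chain with no protein core, is made by the hyaluronan synthases. HAS2 (chr8:122625271-122653630) differed between times, and the intervals of the siRNAs overlapped at both. It was at 9.37 FPKM in control 24 h and 10.1 in SAF-A 24 h, then at 1.33 in control 48 h and 1.07 in SAF-A 48 h. The difference between times was -2.16 with control siRNA and -2.42 with SAF-A siRNA, and the second rested on 4 reads at 48 h. An antisense gene, HAS2-AS1, shares 6.14% of its exonic bases, and its own mean was 0.139 FPKM.

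VCAN (chr5:82767493-82878122) encodes versican, a large proteoglycan that binds hyaluronan. It was at 47.7, 44.0, 45.5 and 26.4 FPKM, so that SAF-A 48 h was the lowest library, with no overlap. The difference between siRNAs was -0.11 at 24 h and -0.76 at 48 h. Versican's chondroitin sulphate chains attach to regions encoded by 2 large exons, named alpha and beta, that can each be skipped.

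The transcripts of VCAN were divided differently in SAF-A 48 h. The beta exon, of 5262 bases, was carried by 100% of VCAN FPKM in the deep libraries and by 39.1% in SAF-A 48 h (27.1% to 55.2%). The alpha exon, of 2961 bases, was carried by 28.7%, 35.9%, 29.3% and 19.0%. The transcript that lacks both exons held 41.9% in SAF-A 48 h, from about 53.7 reads, and 0% or nearly so in the others. The shares in SAF-A 48 h rested on 212 reads in all. Because FPKM divides by transcript length, the level of VCAN in SAF-A 48 h depends on this split. The transcript that lacks both exons has 4193 nt, and the longest has 12416 nt.

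The prolyl 4-hydroxylase makes the hydroxyproline that keeps the collagen helix stable at body temperature, and 2 of its catalytic subunits are encoded by P4HA1 and P4HA2. P4HA2 (chr5:131528304-131563556) had the largest increase of the compared matrix genes at 48 h on that scale. It was at 14.6, 12.0, 13.0 and 66.1 FPKM, a difference of -0.27 at 24 h and 2.26 at 48 h. P4HA1 (chr10:74766980-74856732) was at 28.6, 32.3, 38.6 and 105 FPKM, a difference of 0.17 and then 1.42. In both genes SAF-A 48 h was the highest library, with its interval apart from the other 3. P4HA1 was also higher in control 48 h than in control 24 h, by 0.42 on the log2 scale, with intervals apart.

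P4HA1 transcripts carry one or the other of a pair of coding exons, the ninth of the gene, which are shown because the share of the first differed with siRNA at both times. Each has 71 bases on the minus strand of GRCh37, they lie 1023 bases apart, and capitals mark the 28 bases at which they differ:
P4HA1 upstream exon, chr10:74804739-74804809: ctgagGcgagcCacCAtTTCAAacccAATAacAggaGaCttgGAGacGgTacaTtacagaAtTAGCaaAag
P4HA1 downstream exon, chr10:74803645-74803715: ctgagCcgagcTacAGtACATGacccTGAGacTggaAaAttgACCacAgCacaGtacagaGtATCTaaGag
The remaining 43 bases, or 60.6%, were identical. The upstream exon was carried by 37.3% of P4HA1 FPKM in control 24 h (32.9% to 41.8%) and 50.6% in SAF-A 24 h (46.3% to 54.8%). At 48 h it was carried by 41.3% in control (37.0% to 45.7%) and 67.8% with SAF-A siRNA (58.6% to 76.3%). At each time the share was higher with SAF-A siRNA and the ranges did not overlap. The last share was estimated from 338 reads over the gene, of which about 10.4 and 4.94 would fall within the upstream and the downstream exon.

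The lysyl hydroxylases prepare collagen for crosslinks. PLOD2 (chr3:145787228-145879282) was at 94.2, 100.1, 87.2 and 155 FPKM, a difference of 0.09 at 24 h and 0.82 at 48 h. PLOD1 was at 36.8, 33.7, 34.5 and 65.1 FPKM, a difference of -0.12 and then 0.90. Both were highest in SAF-A 48 h and under 2-fold. SERPINH1, which encodes the collagen chaperone HSP47, was at 109, 121, 125 and 105 FPKM, with overlapping intervals at both times.

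PLOD2 has an alternative exon that separates the long from the short form of the enzyme. It is shown in capitals with 15 bases of intron on each side, on the minus strand of GRCh37, because its inclusion was the same in all 4 libraries:
PLOD2 alternative exon, chr3:145795634-145795726: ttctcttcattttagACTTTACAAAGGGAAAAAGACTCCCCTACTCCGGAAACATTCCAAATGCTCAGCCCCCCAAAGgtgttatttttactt
Transcripts with this exon of 63 bases held 100% of PLOD2 FPKM in each library. The long form was thus the form in these cells with either siRNA.

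**Figure D3:**
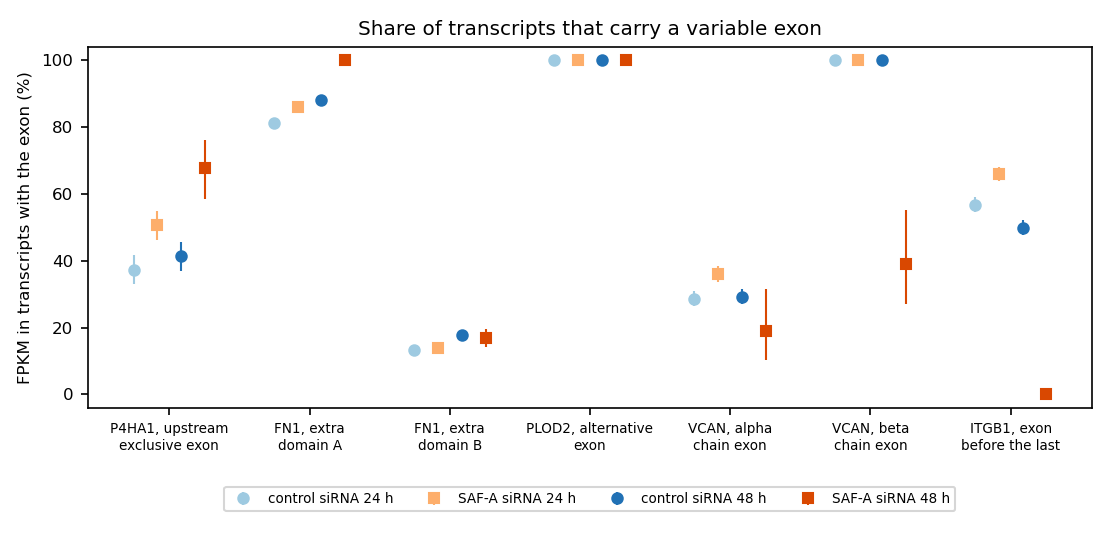
Share of a gene's FPKM, in percent, that lay in transcripts with a given exon, for 7 exons of P4HA1, FN1, PLOD2, VCAN and ITGB1 in the 4 libraries; vertical lines are ranges from the deposited transcript bounds. The P4HA1, FN1 extra domain A and ITGB1 exons separate the siRNAs at both times, ITGB1 in opposite directions. The FN1 extra domain A and ITGB1 exons also separate control 24 h from control 48 h. PLOD2 is at 100% throughout, and the VCAN beta chain exon differs in SAF-A 48 h.

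The lysyl oxidases form the crosslinks between collagen and elastin chains. LOXL1 (chr15:74218789-74244478) was at 24.8, 28.6, 17.3 and 45.7 FPKM, a difference of 0.20 at 24 h and 1.35 at 48 h. The antisense gene LOXL1-AS1, with a mean of 5.06 FPKM, shares 9.83% of its exonic bases, and whether the authors' counting used strand is not given in the sources used here. LOXL2 was at 17.6, 17.8, 24.3 and 37.8 FPKM, a difference of 0.02 and then 0.62.

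LOX itself differed between times. It was at 19.3 FPKM in control 24 h and 21.0 in SAF-A 24 h, and at 10.9 and 11.2 at 48 h, so the difference between siRNAs was 0.11 and 0.03. The difference between times was -0.77 with control siRNA and -0.85 with SAF-A siRNA. The 3 related enzymes therefore had 3 patterns: LOX lower at 48 h with either siRNA, LOXL1 lower at 48 h in control and higher with SAF-A siRNA, and LOXL2 higher at 48 h with both.

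Of the matrix proteases, MMP2 encodes gelatinase A, which cuts type IV collagen, and MMP14 encodes the membrane-bound protease that activates it. MMP2 (chr16:55513081-55540586) was at 38.5, 39.4, 40.7 and 101 FPKM, a difference of 0.03 at 24 h and 1.29 at 48 h. MMP14 (chr14:23305742-23316808) was at 169.7, 218, 197 and 378 FPKM, a difference of 0.36 and then 0.94. MMP14 was above control at both times, and MMP2 at 48 h.

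The tissue inhibitors diverged. TIMP1 (chrX:47441690-47446190) was at 21.9, 23.9, 17.3 and 63.5 FPKM, a difference of 0.12 at 24 h and 1.82 at 48 h. It is the shortest of the compared genes, at 916 nt, and its last value rested on 55.3 reads. Scaled by depth these were 365% of control 48 h, with a counting interval of 269.6% to 486%. TIMP2, whose protein takes part in the activation of gelatinase A, was at 16.0, 15.7, 19.1 and 21.0 FPKM, with overlapping intervals at both times. TIMP3 had at most 0.00617 FPKM.

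The ratio of MMP2 to TIMP2 was 2.41, 2.51 and 2.14 in the deep libraries and 4.82 in SAF-A 48 h (3.53 to 6.83). The ratio of TIMP1 to TIMP2 was 1.37, 1.52 and 0.907, and 3.03 in SAF-A 48 h (1.81 to 4.91). Within SAF-A 48 h, a protease and an inhibitor were thus both higher relative to TIMP2. A ratio within a library does not depend on how FPKM is scaled, and it shows unequal change without showing which gene changed.

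The fibronectin receptor is formed by the chains of ITGA5 and ITGB1. ITGA5 (chr12:54789045-54813050) was at 149, 155, 179 and 425 FPKM, a difference of 0.06 at 24 h and 1.24 at 48 h. ITGB1 (chr10:33189246-33247293), which also pairs with the chains that bind laminin and collagen, was the most abundant matrix gene at 496, 499, 521 and 1103 FPKM, a difference of 0.01 and then 1.08. Both were highest in SAF-A 48 h, and their ratio was 3.33, 3.22, 2.91 and 2.59. The ratio of FN1 to ITGA5, ligand to receptor, was 2.83, 2.59 and 1.78 in the deep libraries and 0.691 in SAF-A 48 h.

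ITGB1 transcripts also differed in SAF-A 48 h. The transcript with an exon of 81 bases before the last one, known as the muscle form of the cytoplasmic tail, held 56.8%, 66.1% and 49.8% of ITGB1 FPKM in the deep libraries and 0.00677% in SAF-A 48 h. Its ranges were apart between siRNAs at both times, in opposite directions. They were 54.6% to 59.1% (control) and 64.0% to 68.1% (SAF-A siRNA) at 24 h. At 48 h they were 47.6% to 52.1% and 0% to 0.0524%. The ranges of control 24 h and control 48 h were thus apart from each other too. The ITGB1 transcripts differ at their start sites as well, so the share is not a measure of that exon alone. ITGB1 had 4851 reads in SAF-A 48 h.

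**Figure D4:**
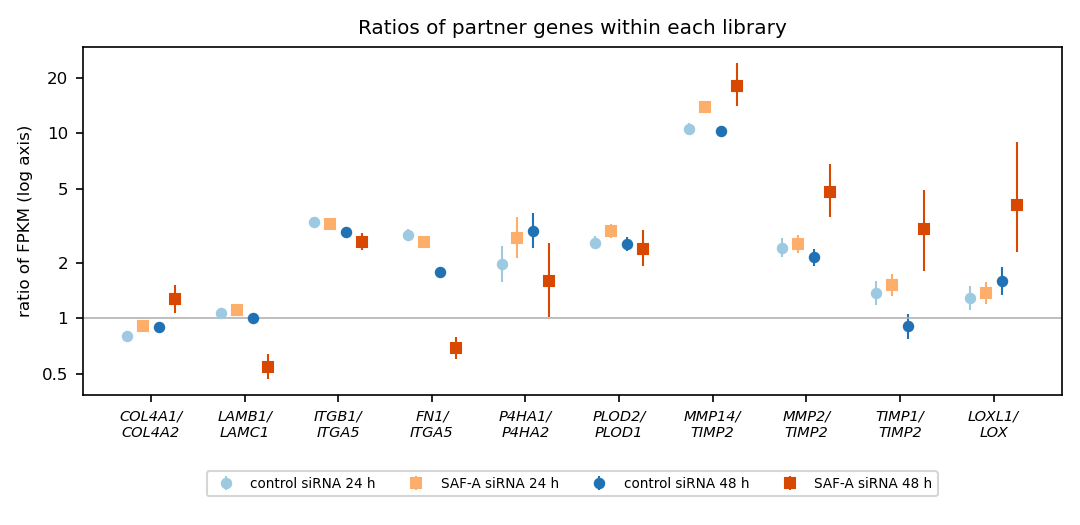
Ratio of FPKM between 10 pairs of partner genes within each library, on a log axis, with ranges from the deposited interval bounds. LAMB1/LAMC1 and FN1/ITGA5 are lowest in SAF-A 48 h (0.547 and 0.691), and MMP2/TIMP2, TIMP1/TIMP2 and LOXL1/LOX are highest there, LOXL1/LOX at 4.09.

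Of 18 matrix genes with several transcripts, 11 had enough signal (5 FPKM in both libraries) to compare transcript shares as a whole. A shift is the sum of absolute differences in share divided by 2, and 0.3 or more was counted. None of the 11 shifted between siRNAs at 24 h, where 9.25% of all such genes did. At 48 h 4 shifted (COL8A1, ITGB1, P4HA1 and VCAN), or 36.4%, where the background was 38.5%. Between times none shifted with control siRNA (background 9.69%) and 3 did with SAF-A siRNA (27.3%, background 38.3%). These shares are near or below those of all genes.

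Time alone moved few matrix genes in control cells. Between 24 h and 48 h with control siRNA 0 were 2-fold higher and 1, HAS2, was lower, where 0.986% of all genes changed (0.561% higher and 0.425% lower). By any amount 20 were higher, where 56.3% of all genes were, and the median was 0.11 against 0.03 over all genes. All 6 basement membrane genes had positive differences, from 0.08 for COL4A2 to 0.73 for LAMA4, and COL8A1 at 0.92 and COL5A2 at 0.78 were the widest increases. With SAF-A siRNA 11 genes were 2-fold higher at 48 h and 3 lower, where 31.5% of all genes changed (15.5% higher and 16.0% lower). By any amount 23 were higher, where 49.4% of all genes were, with a median of 0.65 against -0.01. The higher ones were the 10 listed for the 48 h comparison without LOXL1, and with LAMB2 at 1.14 and LOXL2 at 1.04. The lower ones were COL5A1, THBS1 and HAS2. On the TPM scale these counts were 8 and 5, where 36.4% of all genes changed. The share of changed genes over all that were higher moved from 49.3% to 33.6% on that scale. Centring on the median of genes of at least 5 FPKM moved it to 40.3%. After centring 10 matrix genes were higher and 4 lower, where 31.6% of all genes changed. This comparison and the one between siRNAs at 48 h share the SAF-A 48 h library.

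**Figure D5:**
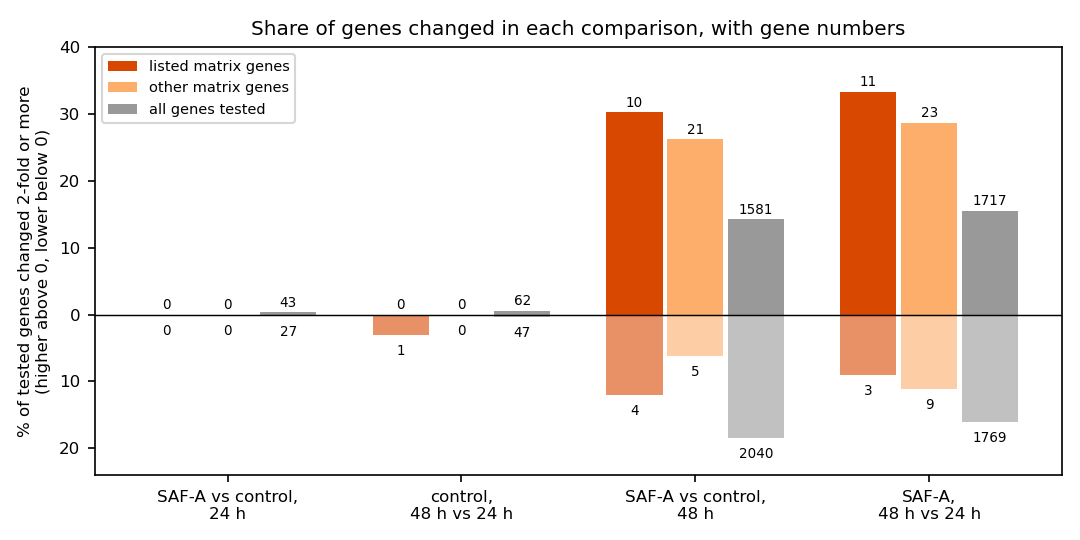
Percent of compared genes that were at least 2-fold higher (bars above 0) or lower (bars below 0) in each of the 4 comparisons, for the listed matrix genes, 157 other matrix genes (80 compared) and all 11053 genes, with the number of genes at each bar. Both comparisons with the SAF-A 48 h library have tall bars in all 3 sets, and the other comparisons have 0 or 1 listed gene.

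A second list of 157 matrix genes, also chosen by name and with earlier results of these data known, gives the rest of the system. Of these, 80 were compared. At 24 h none differed 2-fold between siRNAs. At 48 h 21 were higher and 5 lower, or 32.5%, beside 32.8% of all genes compared (14.3% higher and 18.5% lower), with a median of 0.37. Of the 26 changed genes 23 had intervals apart. By kind, 7 of 19 other proteases and inhibitors, 5 of 14 other integrins and collagen receptors, 4 of 13 other glycoproteins and 1 of 4 other collagens were higher and 0 were lower. Among these proteases, MMP11 was at 0.744, 1.09, 0.646 and 5.19 FPKM. It reached the minimum mean only through SAF-A 48 h, where it rested on 13.0 reads. Intervals of the siRNAs overlapped for MFAP2 and ECM1 among the higher glycoproteins and for DDR1 among the receptors. MFAP2, ECM1 and the higher inhibitor TIMP4 rested on 14.1, 14.0 and 17.0 reads in SAF-A 48 h. Of 17 other genes of collagen processing and crosslinking 4 were higher and 2 lower. The lower ones, ADAMTS3 and PCOLCE2, had 0 and 6.01 reads in SAF-A 48 h. Of 6 other laminin and basement membrane genes 1 was lower, and of 7 other proteoglycan and hyaluronan genes 2 were lower, with 0 higher in either kind. The proteoglycan gene GPC1 lay just under the upper threshold, at 73.9 FPKM in control 48 h and 149 in SAF-A 48 h, with intervals apart. Differences between the kinds were not tested. By a rule of size, the named genes were ADAM17, PLAUR and SPP1 among those higher and SDC4, SDC1 and NID2 among those lower.

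ADAM17 encodes the sheddase that frees growth factors from the membrane, and it was at 19.2, 23.7, 31.8 and 128 FPKM. PLAUR, the urokinase receptor gene, was at 69.9, 89.8, 42.9 and 159.5 FPKM. SPP1, which encodes the integrin ligand osteopontin, was at 27.3, 32.0, 31.3 and 113 FPKM. The differences at 48 h were 1.97, 1.87 and 1.82. SDC4 encodes a heparan sulphate proteoglycan that acts beside the fibronectin receptor, and it was at 58.0, 31.9, 63.3 and 18.1 FPKM, lower with SAF-A siRNA at both times (-0.84 and -1.75). SDC1, of the same family, was at 144, 138, 131 and 56.5 FPKM. NID2, which encodes a linker of laminin and type IV collagen, was at 18.2, 18.4, 32.0 and 13.4 FPKM.

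The compared matrix genes were long. Their median spliced length was 5177 nt against 2979 nt over all genes compared, their median span in the genome 75.6 kb against 28.8 kb, their median GC content 52.5% against 48.2%, and their median level 42.7 FPKM against 10.0. Across the 33 genes, Spearman's rho between spliced length and the change was -0.41 at 24 h and -0.43 at 48 h, against -0.10 and -0.09 over all genes. This is a description across genes that share libraries, and genes are not independent replicates.

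Promoters were searched for 6 short motifs in the 250 bases before the start, on both strands, where matches to different motifs may overlap. RefSeq promoters (GRCh38.p14) were at hand for 26 of the compared matrix genes and 8833 of all genes compared. CCAAT was present in 9 of 26 (34.6%, against 36.6% of all), GGGCGG in 19 (73.1%, 68.5%), TATAAA in 1 (3.85%, 5.15%), the hypoxia factor core ACGTG in 8 (30.8%, 24.5%) and the AP-1 site TGAGTCA in 0 (2.32% of all). GGAATG, the core bound by TEAD factors, was present in 6 (23.1%, 9.32%): COL12A1, THBS1, SPARC, FBN1, ITGA5 and ITGB1. The 48 h changes of these 6 ran from -1.60 for THBS1 to 1.70 for SPARC, so they did not share a direction. A match is a string of letters and not a bound site.

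The remaining 10 genes were under the minimum: COL1A2, COL3A1, COL6A1, COL6A2, COL6A3, POSTN, HAS3, BGN, DCN and TIMP3. The highest mean among them was 0.513 FPKM (COL6A3), against 1.06 for the lowest gene above it. Several are known as products of fibroblasts, such as the leucine-rich proteoglycans biglycan (BGN) and decorin (DCN). In SAF-A 48 h 7 of the 10 had no estimated read, and a count of 0 there allows a level of up to 0.238 FPKM for COL6A3 and up to 1.18 for DCN, the level of 3 reads. COL6A3 was at 0.898, 0.773 and 0.380 FPKM in the deep libraries.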

How the data were processed

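Total RNA of RPE1 cells was depleted of ribosomal RNA and read as 50-base single-end reads, per the labels' protocols, with 1 library per group. The submitters' processing notes name TopHat2 2.0.10, Bowtie2 2.1.0, Cufflinks 2.2.1, Cuffdiff and the build hg19. The deposited tables hold FPKM with 95% bounds and a status, computed by the authors, per the file headers. The deposited transcript files add a coverage value and a score per transcript, and coverage gave the mapped reads. The use of strand and the handling of reads with several positions are not given in the sources used here.

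Each of the 47338 rows is a RefSeq transcript. Rows were joined to symbols through RefSeq (GRCh38.p14, names only; 97.1% matched), and FPKM and bounds were summed per symbol, which widens the intervals of genes with several rows. Estimated reads were FPKM times effective length (fragments of 200 ± 80 nt, assumed) times mapped reads. Of the 33 compared genes 25 had at least 100 reads in SAF-A 48 h. Intervals describe the estimate within a library, and their width did not follow read number alone. In control 24 h COL4A2, with 14272 reads, had bounds of 80.1 and 87.6 FPKM. COL4A1, with 11953 reads, had 66.0 and 68.5.

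Genes compared averaged at least 1 FPKM over the libraries and had a spliced length of at least 300 nt, since FPKM of short RNAs made up 50.9% to 63.8% of the total and is unstable. Changes are differences in log2(FPKM + 1), called at 2-fold, with no test. Every listed gene is named, and of the other matrix genes the 3 highest and 3 lowest changes per siRNA comparison with a mean of at least 5 FPKM, a 2-fold change and intervals apart. The members and lists were chosen with earlier results of these data known. Exons came from the deposited files, of which 89.5% of 1198 exons of the listed genes were identical to GENCODE 44 on GRCh37, and sequences from that genome.

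Alternatives were a pseudocount of 0.1, no filter, a mean of at least 5 FPKM, any length, TPM, centring, 1.5-fold, intervals apart, and for shares 20 FPKM or 0.5. Python 3.11.15, pandas 2.3.3, numpy 2.4.6 and scipy 1.17.1 were used. The calling was run on simulated reads of genes averaging at least 5 FPKM, with counting noise and no spread between cultures. The planted changes were larger than 2-fold, so the run did not cover changes near the threshold or genes at lower levels.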

Additional observations from a re-analysis of the deposited data

Results flagged for a closer look

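Between 24 h and 48 h, 5 matrix genes had a difference between SAF-A and control siRNA of opposite sign, with the intervals of the siRNAs apart at each time. They were 15.2% of the 33 compared, where 3.58% of all 11053 genes (396) met the same rule, and whether the matrix genes differ from the rest in this was not tested. The matrix genes had a median level of 42.7 FPKM against 10.0 over all genes, and the share among genes of similar level was not computed. COL4A1 was at -0.24 on the log2 scale at 24 h and 0.16 at 48 h, although on the TPM scale the second value was -0.07. LAMB2 was at -0.13 and 0.91, TNC at -0.13 and 0.57, and PLOD1 at -0.12 and 0.90. The 24 h values of LAMB2, TNC and PLOD1 lay between the lower and upper quartiles of all genes, -0.19 and 0.06. THBS1 was at 0.40 and -1.60. With 1 library per group, the difference between times was not tested.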

How the results depend on the processing

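No paired analysis was possible because each group has 1 library, and for the same reason no library could be left out within a group. The results that do not use the shallow SAF-A 48 h library are those between siRNAs at 24 h and between times with control siRNA. Of 100 alternative values for counts and medians, 88 stayed within 1.5 times the reported count or close to the reported median, and 12 moved. For SAF-A against control siRNA at 48 h, the median was 0.13 with no filter on low FPKM. The lower genes numbered 2 among genes averaging 5 FPKM or more, where 33.6% of all such genes changed in either direction. They also numbered 2 with at least 100 reads in SAF-A 48 h, an alternative chosen after seeing the data. The higher genes numbered 16 at 1.5-fold, a threshold that 56.5% of all genes passed in either direction. The shifted transcript shares numbered 2 at a difference of 0.5, where 21.7% of all such genes shifted. For SAF-A siRNA between times, the median was 0.16 with no filter. The lower genes numbered 5 on the TPM scale, where 36.4% of all genes changed in either direction, and 1 with at least 100 reads. At 1.5-fold 18 were higher and 6 lower (55.6% of all genes). For control siRNA between times, 1.5-fold gave 3 higher and 2 lower (5.19% of all genes). The filters, read limits and thresholds change these counts by admitting more or fewer genes, and for the TPM scale the cause was not tested. Among single genes 52 alternative values moved by more than the deposited interval allows and 344 did not, and 0 called genes changed sign. Of all genes compared at 24 h, the share of changed genes that were higher was 61.4%, and 83.9% with a mean of at least 5 FPKM. Depth limits COL5A1, LAMA4 and HAS2, with 2, 11 and 4 reads in SAF-A 48 h.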
